A study of Mus musculus with 6 samples.

Results

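The genes described here are 10 nuclear genes that maintain mitochondria as an expressing and dividing network. They are the mitochondrial DNA (mtDNA) transcription genes Tfam, Tfb1m, Tfb2m and Polrmt, the nuclear regulators Nrf1 and Gabpa, the fusion genes Mfn1, Mfn2 and Opa1, and the fission gene Dnm1l. They were selected by name, with every probe set annotated to them, which gave 11 of the 34760 probe sets on the array and 10 of 19937 genes. Tfb2m had 2 probe sets and each other gene had 1. The tissue was inguinal white fat, which lies under the skin of the groin, of 3 Atf7 knockout (KO) mice and 3 wild-type (WT) littermates, all C57BL/6 males at 5 weeks of age, born to heterozygous parents. Each sample was hybridised to 1 array. The design text counts replicates as mice but does not say whether RNA was pooled, so p-values measure the spread between these samples. The exon removed by the Atf7 allele and the number of founder lines are not stated in the labels, which name no Cre driver. The series title names the question as the part ATF7 plays in adipocyte differentiation and thermogenic genes, and the comparison below asks how far these 10 genes differed between the genotypes.

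Mitochondria carry a small circular genome that encodes subunits of the respiratory chain. POLRMT transcribes it, TFAM bends its promoters and coats it, and TFB2M opens the promoter for the polymerase. NRF1 and the GABP complex are nuclear factors that bind the promoters of many mitochondrial genes, Tfam among them. Mitochondria also fuse and divide: MFN1 and MFN2 join outer membranes, OPA1 joins inner membranes, and the dynamin-related protein DRP1, made from Dnm1l, constricts and cuts the organelle. In fat, thermogenic adipocytes are rich in mitochondria and remodel this network when they produce heat.

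Values are log2 expression per probe set after RMA. Array medians ran from 6.41 to 6.49. The Atf7 probe set 10433032 was 9.07 ± 0.12 in WT and 6.41 ± 0.17 in KO (SD, n = 3), with all KO arrays below all WT arrays, as the labels imply. The second Atf7 probe set, 10433034, was 9.42 in WT and 9.25 in KO, with the groups overlapping. As the brighter of the 2, it represented Atf7 in the fit over genes. Of 18 markers of mature white adipocytes 16 were measured, and the adipokine gene Adipoq was at 12.47 in WT and 12.46 in KO. One array, KO replicate 3, stood apart. On the first principal component of all probe sets (44.7% of the variance) it was at 66.6. The other arrays ran from -21.3 to 12.4. The lymphocyte score is the mean centred level of the T cell and B cell markers. It was -2.31 in KO replicate 3, -0.12 and 0.58 in KO replicates 1 and 2, and 0.48 to 0.73 in WT. This array made most of the range of the score, so the covariate cannot tell lymphocyte content from its other traits. In bulk tissue, fewer cells of a type and less RNA per cell cannot be told apart.

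None of the 10 genes passed limma at an adjusted p under 0.05, as was so for 0 of 19937 genes higher and 0 lower. The adjusted p ran from 0.622 to 0.994 among them. The members fell into 3 patterns by their values. The fusion genes Mfn1, Mfn2 and Opa1 were higher in KO by 0.34, 0.31 and 0.32 on the log2 scale, and Tfb2m was higher by 0.32 with wider scatter. Nrf1 was lower by 0.23. Tfam, Tfb1m, Polrmt, Gabpa and Dnm1l differed by at most 0.08 in either direction. At an unadjusted p under 0.05 there was 1 member, Mfn1, higher in KO, where 4.99% of all genes were higher at that level and 2.48% lower. The KO arrays were all above the WT arrays for 2 members, Mfn1 and Opa1, where 7.96% of all genes did so. No member lay wholly below, where 5.97% of all genes did. A positive difference was seen for 6 of 10 members and for 53.0% of all genes. The median difference was 0.07 over the members and 0.01 over all genes.

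**Figure D1:**
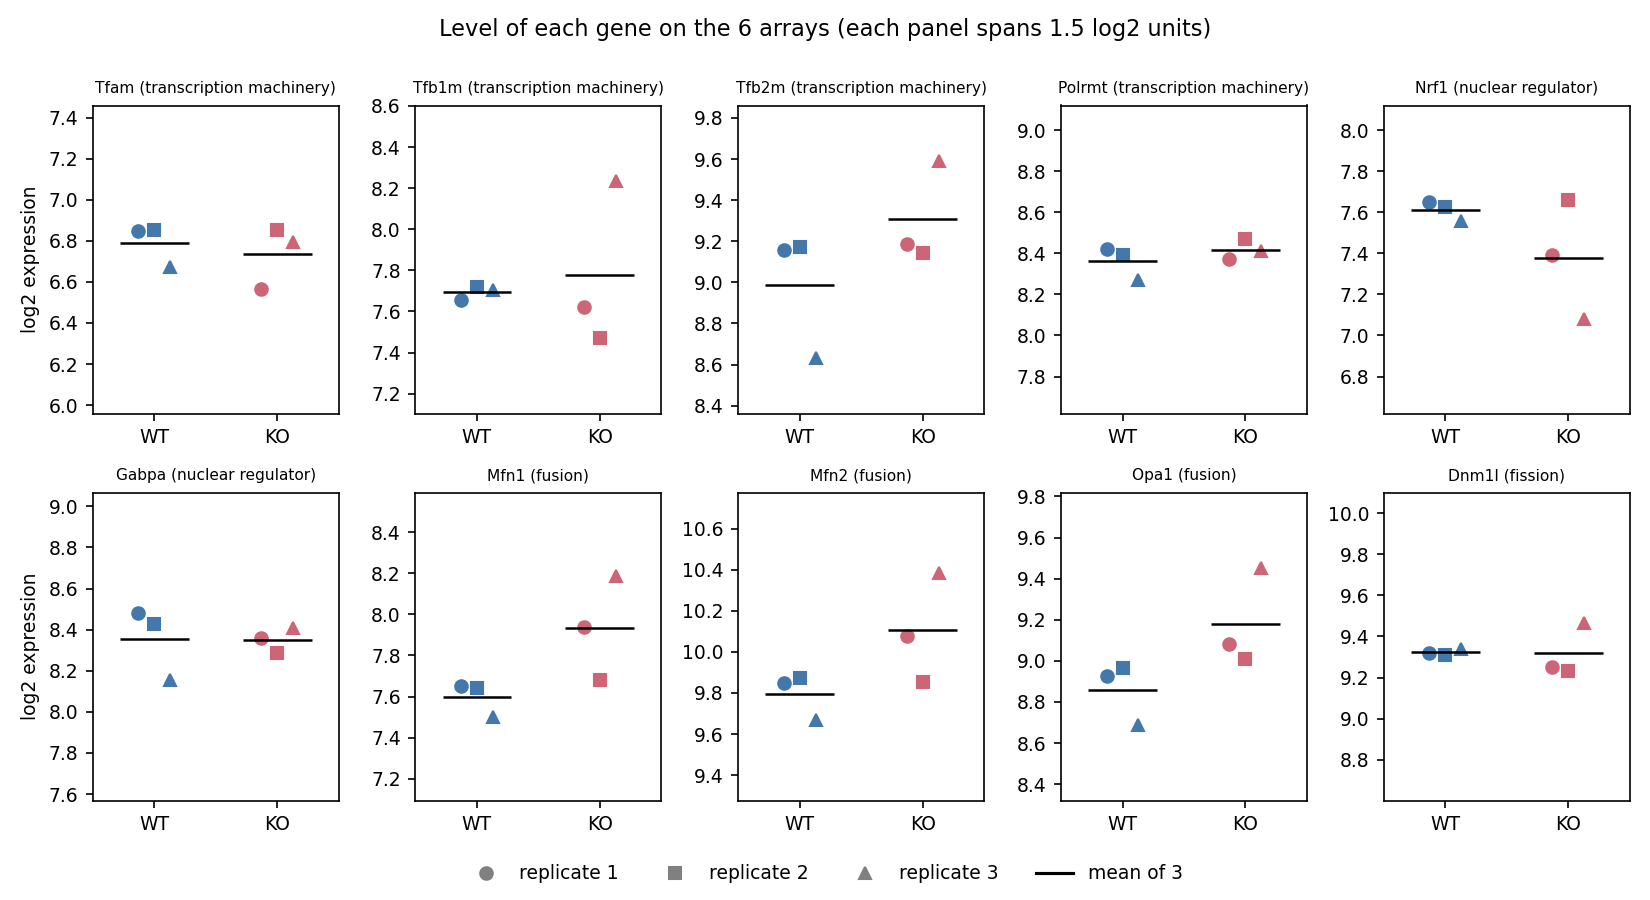
Log2 expression of each of the 10 genes on the 6 arrays, WT in blue and KO in red, with the marker shape giving the replicate number and the black line the mean of 3. Every panel spans the same 1.5 log2 units, so Mfn1 and Opa1 can be seen with no overlap between groups and Dnm1l with equal means.

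The promoters of the 3 fusion genes are shown because these genes varied together over the arrays, and that of Dnm1l, the fission gene, because its group means were nearly equal. Each sequence is the 250 bases before the RefSeq transcription start (assembly GRCm38.p6), read 5′ to 3′ on the gene's own strand, for the most upstream of the starts listed. It is chr3:32529232-32529481 on the plus strand for Mfn1, chr4:147904910-147905159 on the minus strand for Mfn2, chr16:29579084-29579333 on the plus strand for Opa1 and chr16:16359032-16359281 on the minus strand for Dnm1l. Capitals mark matches to a searched motif.
Mfn1: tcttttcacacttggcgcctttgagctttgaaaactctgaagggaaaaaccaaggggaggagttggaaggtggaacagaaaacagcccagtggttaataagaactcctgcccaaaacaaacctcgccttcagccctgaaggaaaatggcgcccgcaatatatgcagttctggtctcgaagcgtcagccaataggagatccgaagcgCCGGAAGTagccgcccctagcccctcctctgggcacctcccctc
Mfn2: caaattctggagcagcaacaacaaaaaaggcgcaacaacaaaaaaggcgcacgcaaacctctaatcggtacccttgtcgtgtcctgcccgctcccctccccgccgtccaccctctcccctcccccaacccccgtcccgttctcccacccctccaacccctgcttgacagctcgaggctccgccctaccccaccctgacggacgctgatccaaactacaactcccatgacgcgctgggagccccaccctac
Opa1: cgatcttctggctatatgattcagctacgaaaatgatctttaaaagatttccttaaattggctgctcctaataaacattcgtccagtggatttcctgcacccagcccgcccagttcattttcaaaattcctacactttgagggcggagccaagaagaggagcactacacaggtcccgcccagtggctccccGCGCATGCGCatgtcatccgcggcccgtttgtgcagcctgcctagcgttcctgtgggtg
Dnm1l: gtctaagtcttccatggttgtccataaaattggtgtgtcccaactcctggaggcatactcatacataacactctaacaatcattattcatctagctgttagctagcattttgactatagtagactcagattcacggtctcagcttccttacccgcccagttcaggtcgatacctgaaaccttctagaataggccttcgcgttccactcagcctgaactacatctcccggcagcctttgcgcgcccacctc

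All 10 genes matched the RefSeq promoter table by symbol, with 14 windows of 300 bases that run from 250 before to 50 after a start. Both strands were searched for GCGCANGCG (NRF1), CCGGAAGT (GABP and other ETS factors), TGACGTCA (the cyclic AMP response element that ATF and CREB factors bind), AAGATGGCG (YY1) and TCAAGGTCA (estrogen-related receptors). These motifs occur in 6.25%, 3.89%, 1.79%, 1.4% and 0.423% of the 32851 windows in the table. Those windows had a median GC content of 52.7% and were not matched to the members. The windows of the 10 genes ran from 46.3% to 77.0%, both in Nrf1, and most were above that median. Opa1 held 2 overlapping NRF1 matches, 1 on each strand, between -59 and -50 from its start. Mfn1 held an ETS match from -44 to -37, as Tfam did from -47 to -40. NRF1 matches were also found in Tfb2m, from 13 to 21 after its start, and in Polrmt, where 2 overlap between -5 and 10. Gabpa held a YY1 match from -68 to -60. The 3 windows of Mfn2, the 2 of Dnm1l, the 2 of Nrf1 and the 1 of Tfb1m held none of the 5 motifs, and no window of the 10 genes held the cyclic AMP response element or the estrogen-related receptor motif. A match is a string of letters and was not tested as a binding site.

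Mfn1, a GTPase that tethers and joins outer membranes, was at 7.65, 7.64 and 7.50 in the WT arrays and 7.94, 7.68 and 8.19 in the KO arrays. Every KO array was above every WT array, although KO replicate 2 cleared the highest WT array by little. The log2 difference was 0.34 (SE 0.14, 95% interval 0.01 to 0.66), which is 1.26-fold, with an adjusted p of 0.622 from limma. An exact two-sided permutation test gave 0.1, the smallest p that 3 arrays against 3 allow.

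Mfn2, the paralog of Mfn1 that also tethers mitochondria to the endoplasmic reticulum, was at 9.85, 9.87 and 9.67 in WT and 10.08, 9.85 and 10.38 in KO. KO replicates 1 and 3 were above all WT arrays, while KO replicate 2 lay within the WT range. The difference was 0.31 (SE 0.15, 95% interval -0.04 to 0.65), or 1.24-fold, with an adjusted p of 0.622 from limma and 0.2 in the exact permutation test.

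Opa1, the dynamin-like GTPase of the inner membrane that also shapes cristae, was at 8.92, 8.96 and 8.69 in WT and 9.08, 9.01 and 9.45 in KO. The groups did not overlap, with KO replicate 3 highest and WT replicate 3 lowest. Its difference was 0.32 (SE 0.14, 95% interval -0.02 to 0.66), or 1.25-fold, with an adjusted p of 0.622 from limma and 0.1 in the exact permutation test.

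Dnm1l, the fission GTPase, was at 9.32, 9.31 and 9.34 in WT and 9.25, 9.23 and 9.47 in KO. The WT arrays were almost identical (SD 0.01) and the KO arrays lay on both sides of them (SD 0.13). The mean difference was -0.0051 (SE 0.10, 95% interval -0.23 to 0.22), so a difference of the size seen in the fusion genes lies outside the interval. Its sign turned when arrays were shifted to a common median (0.022).

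The fusion genes were set against each other and against Dnm1l within each array, where a shift common to the array cancels. The gap between Mfn2 and Mfn1 was 2.20, 2.23 and 2.17 in WT and 2.14, 2.17 and 2.20 in KO, so both mitofusin genes kept a nearly fixed log2 distance on all 6 arrays. That gap differed between genotypes by -0.03, with an exact permutation p of 0.4. Opa1 minus Dnm1l was -0.40, -0.35 and -0.65 in WT and -0.17, -0.23 and -0.02 in KO, a difference of 0.33 with no overlap. Mfn2 minus Dnm1l was 0.53, 0.56 and 0.33 in WT and 0.82, 0.62 and 0.92 in KO, a difference of 0.31 with no overlap. Both gave an exact permutation p of 0.1, the smallest possible, and 0.25 after Benjamini-Hochberg adjustment over the 5 pairs compared. Tfb2m minus Tfb1m and Gabpa minus Nrf1 differed by 0.24 and 0.23, each with overlapping groups and an exact permutation p of 0.4. The distance itself is between different probes and has no meaning as a ratio of transcripts.

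**Figure D2:**
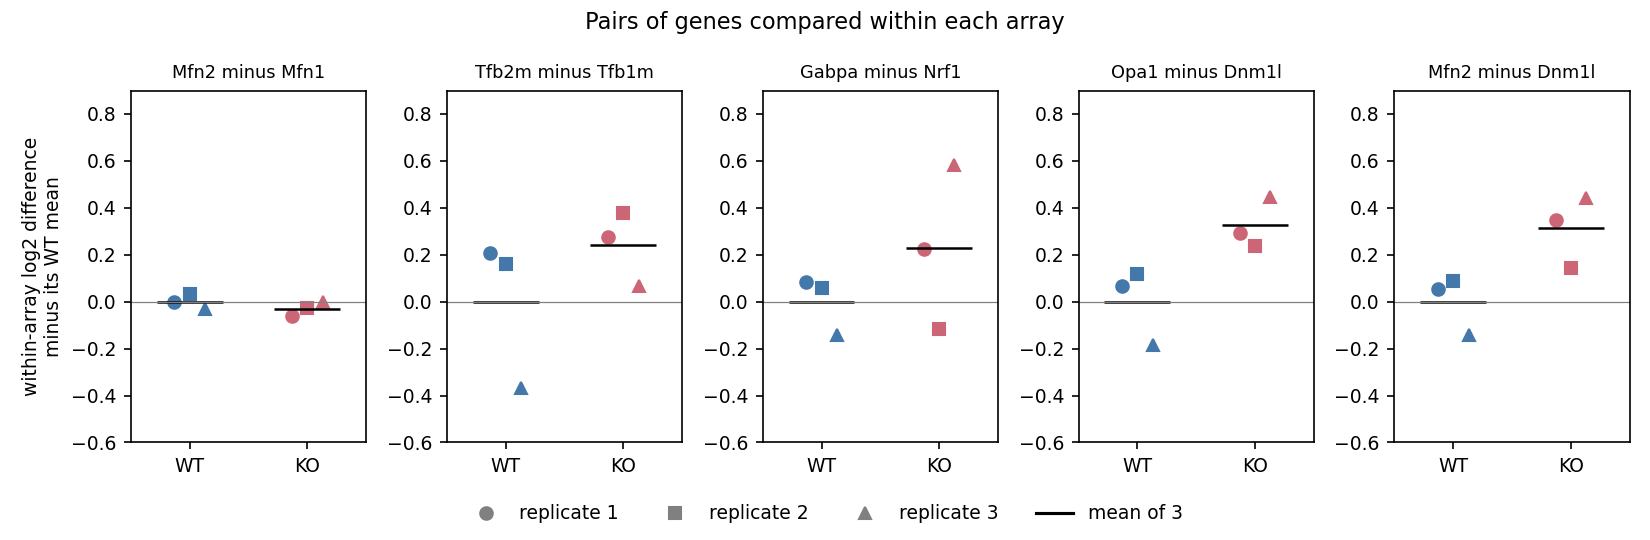
Within-array log2 difference between the 2 genes of each of the 5 pairs, shown after subtracting the WT mean of that pair, with WT in blue, KO in red, marker shape for the replicate number and a black line for the mean of 3. The KO arrays lie above the WT arrays for Opa1 minus Dnm1l and Mfn2 minus Dnm1l, and the 6 arrays lie close together for Mfn2 minus Mfn1.

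The KO arrays of the fusion genes ran in the reverse order of the lymphocyte score, and in the order of the adipocyte lists given below. KO replicate 3, with a score of -2.31, was the highest array for all 3 genes, KO replicate 1, with -0.12, was the next, and KO replicate 2, whose score of 0.58 lay among those of WT, was just above the highest WT array for Mfn1 and Opa1 and below it for Mfn2. In limma with this score as a covariate, the differences were 0.14 for Mfn1, 0.09 for Mfn2 and 0.12 for Opa1, and Mfn1 was no longer at an unadjusted p under 0.05. Without KO replicate 3 they were 0.21, 0.17 and 0.19, and without KO replicate 2 they were 0.46, 0.43 and 0.41. The difference in Opa1 minus Dnm1l was 0.23 when adjusted for the score, and that in Mfn2 minus Dnm1l 0.20. Of the T cell markers 21 of 24 were measured and 21 were lower in KO, 4 at an unadjusted p under 0.05, with levels of 0.47 to 0.68 in WT and -1.96 to 0.52 in KO. Of the B cell markers 21 of 22 were measured and 20 were lower, 1 at that level, with levels of 0.49 to 0.79 in WT and -2.65 to 0.65 in KO. Over all genes, 2.48% were lower in KO at an unadjusted p under 0.05 in limma and 53.0% had a positive difference.

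**Figure D3:**
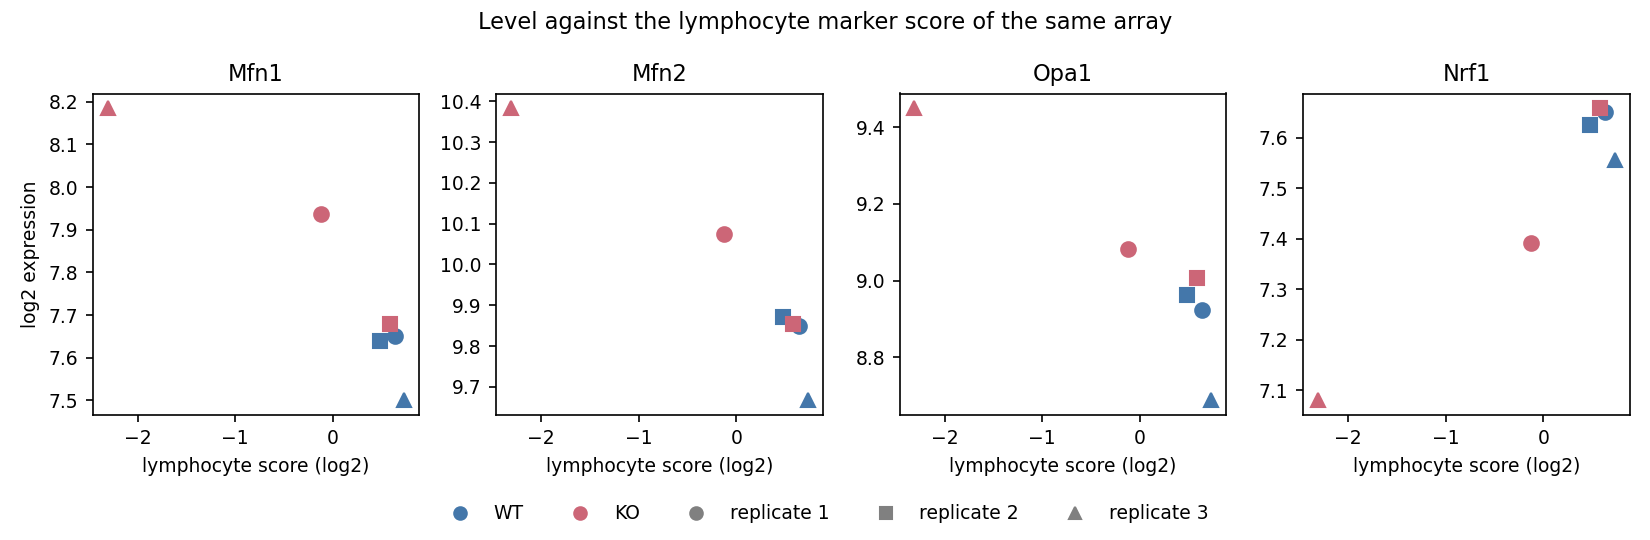
Log2 expression of Mfn1, Mfn2, Opa1 and Nrf1 on each array against the lymphocyte score of that array (mean centred log2 level of T cell and B cell markers), with WT in blue, KO in red and marker shape for the replicate number. KO replicate 3 lies alone at a score of -2.31, KO replicate 1 at -0.12 and the other 4 arrays between 0.48 and 0.73.

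Skeletal muscle, which is also rich in mitochondria, was measured through 28 markers. Its score was -1.08, 1.69 and 0.34 in WT and 1.12, -1.0 and -1.08 in KO, so the groups overlapped and KO replicate 3 was at the low end. With this score as a covariate the differences were 0.33 for Mfn1 and 0.30 for both Mfn2 and Opa1. The white adipocyte list was at -0.03, -0.02 and -0.16 in WT and 0.07, -0.08 and 0.22 in KO. Of 15 brown and beige adipocyte markers 14 were measured and 13 were higher in KO, where 53.0% of all genes were. At an unadjusted p under 0.05 in limma 10 were higher, where 4.99% of all genes were. Levels were -0.28, -0.55 and -0.66 in WT and 0.44, 0.30 and 0.74 in KO. In both adipocyte lists the KO arrays ran in the order of the fusion genes, and neither list was fitted as a covariate. The macrophage list overlapped between groups (-0.29 to 0.23 in WT, -0.17 to 0.33 in KO), as did the endothelial (-0.20 to 0.03 and -0.08 to 0.20) and stromal lists (-0.18 to 0.12 and -0.11 to 0.25). Keratinocyte markers were at -0.03 to 0.36 in WT and -0.23 to -0.07 in KO, with KO below WT. The part of these other cell types in the fusion gene differences was not tested.

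Among the transcription genes, Polrmt and Tfam were close in both groups. Polrmt, the mitochondrial RNA polymerase, was at 8.42, 8.39 and 8.27 in WT and 8.37, 8.47 and 8.41 in KO, a difference of 0.06 (95% interval -0.15 to 0.26). Tfam, the packaging and transcription factor of mtDNA, was at 6.85, 6.85 and 6.67 in WT and 6.56, 6.85 and 6.80 in KO, a difference of -0.05 (95% interval -0.32 to 0.21). KO replicate 1 was the lowest array for Tfam, and without it the difference was 0.03. Adjusted p-values from limma were 0.850 and 0.898.

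Tfb2m, the promoter-opening partner of the polymerase, was read by probe sets 10360580 and 10400165. The brighter, 10360580, was at 9.16, 9.17 and 8.63 in WT and 9.19, 9.14 and 9.59 in KO, a difference of 0.32 (SE 0.19, 95% interval -0.12 to 0.76). The spread came from an array in each group, WT replicate 3 low and KO replicate 3 high, while the other 4 lay between 9.14 and 9.19. Without WT replicate 3 the difference was 0.14, without KO replicate 3 it was 0.18, and adjusted for the lymphocyte score it was 0.10. Probe set 10400165 was at 8.41, 8.60 and 8.37 in WT and 8.56, 8.38 and 8.95 in KO, a difference of 0.17 (SE 0.16). Both probe sets were highest in KO replicate 3 and overlapped between groups, with adjusted p-values from limma over all probe sets of 0.709 and 0.800.

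Tfb1m, a relative of Tfb2m that methylates the small mitochondrial ribosomal RNA, was at 7.66, 7.72 and 7.71 in WT and 7.62, 7.47 and 8.23 in KO. KO replicates 1 and 2 were below all WT arrays and KO replicate 3 was above them, so the SD was 0.03 in WT and 0.40 in KO. The mean difference of 0.08 (95% interval -0.37 to 0.53) became -0.15 without KO replicate 3 and -0.25 when adjusted for the lymphocyte score, where its unadjusted p was 0.0374 and its adjusted p 1.0 by limma. Over all of its alternatives the adjusted p ran from 0.543 to 1.0.

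Nrf1, nuclear respiratory factor 1, is a different gene from Nfe2l1, whose protein is also called NRF1. It was at 7.65, 7.62 and 7.55 in WT and 7.39, 7.66 and 7.08 in KO. KO replicates 1 and 3 were below all WT arrays and KO replicate 2 was the highest of the 6. The KO arrays ran in the reverse of their order in the fusion genes, while WT replicate 3 was the lowest WT array in both. The difference was -0.23 (SE 0.15, 95% interval -0.58 to 0.12), with an adjusted p of 0.647 from limma. It was -0.09 without KO replicate 3, -0.37 without KO replicate 2 and -0.0080 when adjusted for the lymphocyte score.

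Gabpa, the DNA-binding ETS subunit of GABP, was at 8.48, 8.43 and 8.16 in WT and 8.36, 8.29 and 8.41 in KO. The KO arrays lay inside the WT range, with a difference of -0.0041 (SE 0.11, 95% interval -0.27 to 0.26) and an adjusted p of 0.994 from limma.

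**Figure D4:**
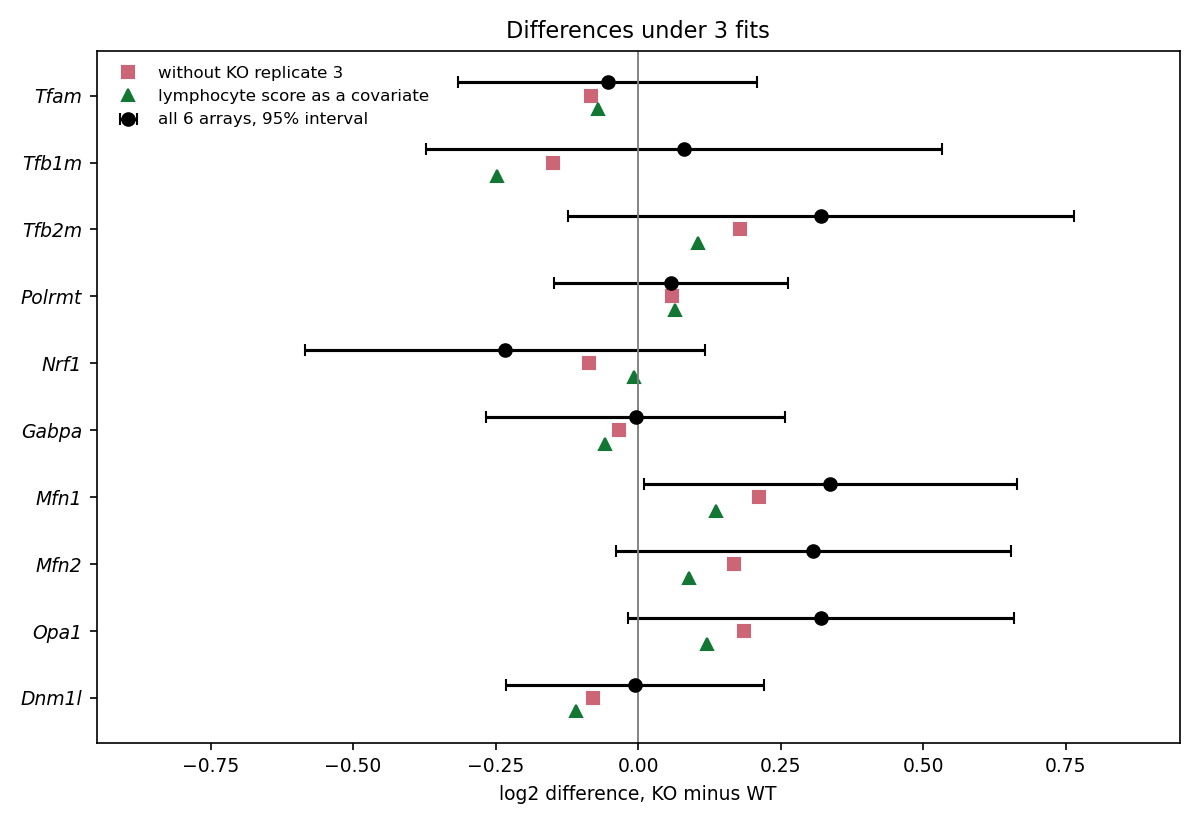
Log2 difference (KO minus WT) of each gene with all 6 arrays and its 95% interval (black), without KO replicate 3 (red squares) and adjusted for the lymphocyte score (green triangles). For the fusion genes all 3 points lie above 0 and the black ones are farthest to the right, while Tfb1m lies on both sides of 0.

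Across the 6 arrays the fusion genes varied together, and the other members followed them to different degrees. Pearson's r, given here as a description over 6 arrays from 2 genotypes and including the array that stands apart, was 0.99 between Mfn1 and Mfn2, 0.98 between Mfn2 and Opa1 and 0.96 between Mfn1 and Opa1. Tfb2m had 0.86 to Mfn1, 0.90 to Mfn2 and 0.95 to Opa1, its spread coming from WT replicate 3 and KO replicate 3 as given above. Nrf1 ran opposite to the fusion genes, with -0.91 to Mfn1, -0.90 to Mfn2 and -0.81 to Opa1. Tfb1m had 0.70 to 0.76 with the 3 fusion genes and Dnm1l 0.52 to 0.58, and these 2 had 0.96 with each other. KO replicate 3 was the highest array for both, as for the fusion genes. Tfam had between -0.17 and 0.12 with the 3 fusion genes. Of 9717 brighter named genes, the 5 with the course most like that of Mfn1, the member with the smallest p, were Sat2 (r 0.996), Zcchc24 (0.995), Ube2e2 (0.995), Mtmr10 (0.995) and Wfs1 (0.993). These 5 had differences of 0.49, 0.33, 0.41, 0.28 and 0.32, and all had an adjusted p of 0.622 from limma. Because they were picked by likeness to Mfn1 on the same arrays, their positive differences follow from that choice. The groups overlapped for Ube2e2 and Wfs1.

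Few products of mtDNA transcription could be read by name. Of 15 genes encoded on mtDNA, 2 were matched, through Entrez identifiers, and both were very bright. COX2, a catalytic subunit of cytochrome c oxidase, was at 12.61, 12.66 and 12.66 in WT and 12.67, 12.81 and 12.81 in KO. ND3, a subunit of complex I, was at 13.05, 13.11 and 13.11 in WT and 13.11, 13.16 and 13.19 in KO on its brighter probe set. The groups did not overlap for either gene, KO being higher, by small amounts (differences 0.12 and 0.07, SE 0.09 and 0.08). The adjusted p-values from limma were 0.673 and 0.803. KO lay wholly above WT for 7.96% of all genes. For ND3 the highest WT array was at 13.1057 and the lowest KO array at 13.1137. The second ND3 probe set, 10598055, differed by 0.15 with the groups overlapping. The 13 other mtDNA genes of the list are not analysed here, and the 11799 probe sets with no listed gene were not searched for them.

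The wider pathway was read through 6 lists of partner genes, and no gene of any of them passed adjustment over all genes. Beside the counts below, 4.99% of all genes were higher and 2.48% lower at an unadjusted p under 0.05 in limma, and 53.0% were positive. Of the partners of mtDNA transcription and replication, 22 of 24 were measured, 15 had a positive difference, and at an unadjusted p under 0.05 there were 1 higher and 0 lower (median 0.07). The 1 was Slc25a33, a mitochondrial carrier of pyrimidine nucleotides, at 6.20, 6.31 and 5.66 in WT and 6.50, 6.60 and 6.86 in KO, a difference of 0.60 (SE 0.19). Next by p were Mterf3, which represses mtDNA transcription (0.17), and Mrpl12, a ribosomal protein that also binds POLRMT (0.23). In mitochondrial RNA processing and decay 26 of 27 were measured, 20 were positive, 1 was higher and 0 lower at that level (median 0.05). The 3 with the smallest p were the RNA helicase gene Ddx28 (0.32), the RNA helicase gene Supv3l1 (0.25) and Slirp, whose product stabilises mitochondrial messenger RNA with LRPPRC (0.35).

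Regulators of biogenesis were spread most widely, from -0.39 to 1.34 around a median of 0.01. Of 22 listed, 21 were measured and 11 had a positive difference, where 53.0% of all genes did. At an unadjusted p under 0.05 in limma there were 5 higher and 1 lower, where 4.99% and 2.48% of all genes were. The 5 were Ppara, a nuclear receptor of fatty acid oxidation (1.34, SE 0.28), the estrogen-related receptor gene Esrrg (0.54, SE 0.13), the coactivators Ppargc1b (0.67, SE 0.18) and Ppargc1a (0.86, SE 0.24), and the stress factor Nfe2l2 (0.28, SE 0.11). The 1 lower was Gabpb2, a partner subunit of GABPA, at -0.39 (SE 0.15). In the whole list of 21, KO lay wholly above WT for 5 genes and wholly below for 3, where 7.96% and 5.97% of all genes did. The 6 genes named here are among them. They were picked by p on the same arrays, so their lack of overlap is no further support. Ppargc1a, Nfe2l2 and Gabpb2 fall outside the rule for named genes. They are given because they complete the counts at an unadjusted p under 0.05 in limma. Adjusted for the lymphocyte score, the differences were 1.16 for Ppara, 0.35 for Esrrg, 0.58 for Ppargc1b and 0.46 for Ppargc1a, each still at an unadjusted p under 0.05 in limma. Those of Nfe2l2 (0.21) and Gabpb2 (-0.15) were no longer so. The values of the members are given above, and a link between these regulators and the members was not tested.

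Among fusion accessories and inner membrane processing genes 22 of 24 were measured and 18 were positive, where 53.0% of all genes were (median 0.11). At an unadjusted p under 0.05 in limma 1 was higher and 1 lower, where 4.99% and 2.48% of all genes were. The higher was Immt, the core protein of the cristae-organising complex, at 9.86, 10.10 and 9.90 in WT and 10.26, 10.06 and 10.55 in KO (0.34). The lower was Miga1, an outer membrane protein that promotes fusion, at 6.52, 6.65 and 6.51 in WT and 6.19, 6.38 and 5.69 in KO (-0.47). Apool, another protein of the cristae complex, differed by 0.33. Fission adaptors and regulators had 19 of 20 measured, 13 positive, 2 higher and 0 lower (median 0.03). The 2 were Akap1, a scaffold that brings protein kinase A to the outer membrane, at 8.55, 8.19 and 8.18 in WT and 8.85, 8.67 and 9.16 in KO (0.59), and Mtfp1, an inner membrane protein that promotes fission (0.52). Mief2, a receptor for DRP1, was next (0.24). The adaptors Fis1 and Mff, chosen here after their values were seen, differed by 0.05 and 0.12. In mitophagy 16 of 18 were measured, 12 were positive, 1 was higher and 0 lower (median 0.08). The 1 was the kinase gene Pink1 (0.38), followed by the kinase gene Ulk1 (0.23) and the autophagosome gene Map1lc3a (0.37). Several of these values moved by over 1.5 times. Immt was at 0.21 without KO replicate 3 and 0.13 adjusted for the lymphocyte score, Pink1 at 0.21 and 0.15, and neither then had an unadjusted p under 0.05 in limma. Miga1 was at -0.28 without that array, still under that level, and at -0.19 adjusted for the score, no longer so. Map1lc3a was at 0.18 and 0.07. Mtfp1 was at 0.37 and 0.30 and Ddx28 at 0.23 and 0.20, no longer under that level, while Akap1 was under it both times at 0.45 and 0.39. Slc25a33 was under it without that array (0.49) and not when adjusted for the score (0.44). Over whole lists, adjusted for the score, the medians were 0.02 for partners of mtDNA transcription and replication, -0.02 for RNA processing, 0.02 for regulators, 0.0025 for fusion accessories, 0.02 for fission adaptors and -0.0029 for mitophagy.

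**Figure D5:**
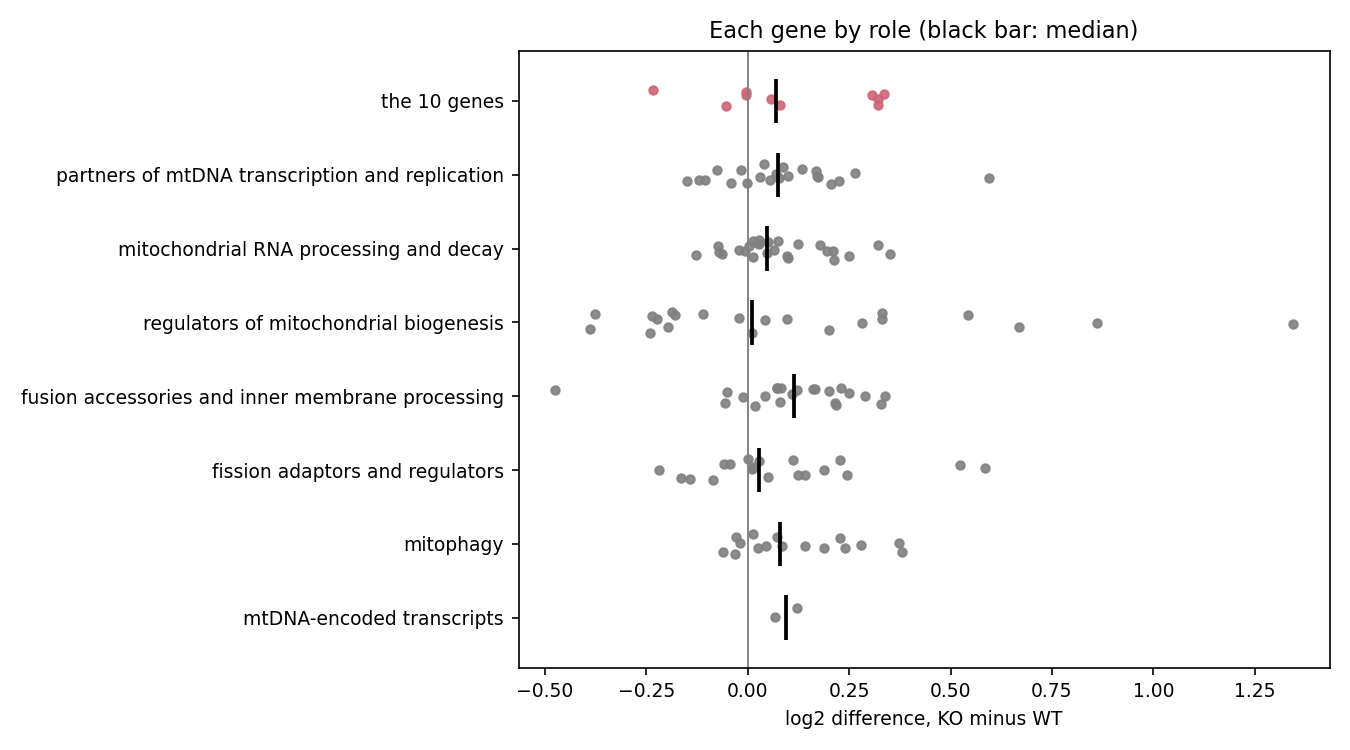
Log2 difference (KO minus WT) of each of the 10 genes (red) and of each gene of the 7 role lists (grey), with a black bar at the median of each row. The medians lie between 0.01 and 0.11, and the regulators of biogenesis spread farthest, up to 1.34 for Ppara.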

How the data were processed

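RNA of 6 samples was measured on 6 arrays, 3 per genotype, with groups and replicate numbers taken from the sample titles. The deposited table gives the authors' log2 expression values for 34760 probe sets, made with RMA, and the tools RMA, affy and limma are named without versions, per the submitters' processing notes. RMA quantile-normalizes arrays, so a change common to nearly the whole transcriptome is removed. Gene symbols came from the annotation of the platform (21640 with 1 symbol, 1321 with several, 11799 with none listed), and a gene was represented by its brightest probe set over the 6 arrays. The 19937 genes were fitted with limma 3.58.1 in R 4.3.3 (lmFit, eBayes, two-sided, no filter) with Benjamini-Hochberg adjustment over all genes and a threshold of 0.05. The fit was checked on simulated data. Single values were also compared by exact two-sided permutation over the arrays, where 0.1 is the smallest p possible.

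The 10 genes, the role and marker lists and the tests were chosen with earlier results of these data known. Named genes are the members, the 3 genes of each role list with the smallest p, Atf7 and the 5 genes most like the member with the smallest p. Of 150 role list entries 128 were measured, and 153 of 163 marker entries. Alternatives were other normalizations, probe set rules, a filter on the dimmest 25% of genes, variance and array weights, the replicate block, 2 cell type covariates and leaving out each array. The lymphocyte covariate for pairs of genes was added after the data were seen. The number of arrays limits the precision.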

Additional observations from a re-analysis of the deposited data

How the results depend on the processing

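At an adjusted p under 0.05, limma called 0 genes with all 6 arrays and 1 gene per annotated symbol, 2 over all probe sets and 1 when the probe sets of a gene were averaged, none of them a member, and 0 under the other alternatives. Of the 2 probe sets called, 1 was Atf7 10433032, with an adjusted p of 0.0066 from limma. At an unadjusted p under 0.05 the 1 member became 0 over all probe sets (where 6.89% of probe sets passed), 0 with the muscle score as a covariate (4.73%), 2 with array weights (14.8% of genes passed) and 0 to 4 without each array in turn. The 4 arose without KO replicate 2, where 18.8% of genes passed, and each of the other 5 arrays left out gave 0, where 3.8% to 6.09% passed. With the lymphocyte score the count was again 1 (3.91% of genes passed), but Mfn1 was replaced by Tfb1m, lower in KO. With the replicate block the count was 0 (6.94% of genes passed) and Mfn1 was at an unadjusted p of 0.0734. The labels do not say that replicate numbers pair the samples. Deviations from the group means correlated by 0.00, 0.03 and 0.04 for numbers 1, 2 and 3. With 3 arrays a group these values cannot settle whether the samples were paired. Mfn1, Mfn2, Opa1, Tfb2m, Polrmt and Nrf1 kept their sign in all 16 alternatives. The sign turned for Tfam (-0.11 to 0.033 without each array), Tfb1m (-0.0040 with array weights, -0.25 with the lymphocyte score, -0.15 to 0.23 without each array), Gabpa (0.023 with a common median, -0.10 to 0.058 without each array), Dnm1l (0.022 with a common median, -0.080 to 0.037 without each array) and Gabpa minus Nrf1 (-0.050 with the lymphocyte score). The cause was not tested. With 3 arrays a group, differences near 0.3 on the log2 scale were at the limit of what the intervals resolve.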

Other observations

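Of the 21 measured regulators of biogenesis, 11 had a positive and 10 a negative difference. The 4 described here, all negative, were picked after their values were seen, and of these Gabpb2 alone had an unadjusted p under 0.05 in limma. They are not the 4 lowest. Myc, Pprc1 and Creb1, not described further, differed by -0.38, -0.24 and -0.24, each lower than all of the 4 but Gabpb2. Gabpb1, a partner subunit of GABPA, was at 7.95, 7.97 and 7.89 in WT and 7.73, 7.97 and 7.52 in KO, a difference of -0.20 with overlapping groups. Gabpb2, the other partner subunit, was at 8.58, 8.46 and 8.58 in WT and 8.14, 8.45 and 7.85 in KO, a difference of -0.39. Hcfc1, a cofactor that binds GABP and the PGC-1 family, differed by -0.19. Adjusted for the lymphocyte score, these 3 differences were -0.03, -0.15 and -0.06. Yy1, a zinc finger factor of mitochondrial gene promoters, was at 9.70, 9.85 and 9.99 in WT and 9.65, 9.60 and 9.62 in KO. Its difference was -0.22 with or without that covariate and also without KO replicate 3, and -0.15 without WT replicate 3. Gabpb2, Hcfc1 and Yy1 were the 3 of the 21 regulators with all KO arrays below all WT arrays, where 5.97% of all genes were so. The adjusted p-values of the 4 genes from limma lay between 0.622 and 0.647.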
